A study of Mus musculus with 2 samples.

Results

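The costimulation and adhesion receptors of lymphocytes were described in mouse spleen RNA. They are 10 genes chosen by name: Cd28, Ctla4, Icos, Cd80, Cd86, Cd2, Cd48, Cd5, Cd6 and Slamf1. Every probe set whose platform annotation gave one of these symbols was taken. The rule found 12 of the 12422 probe sets that are not controls, for 9 of the 10 genes, whereas Slamf1 was not analysed here. The study consists of 2 arrays, named array 1 and array 2, that were hybridised with spleen total RNA sold under a single catalogue number. The sources used here give no strain, age, sex or number of animals, and they name no treatment or control. The arrays form 1 group, so the values describe levels and the spread between arrays, and no p-value was computed. Nothing in the labels says that the RNA came from separate animals, so this spread may be technical.

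These receptors sit on T cells, on the cells that present antigen to them, or on both. A T cell that binds antigen through its receptor needs an additional signal to divide and make cytokines, and CD28 gives that signal when it meets CD80 or CD86 on the presenting cell. CTLA4 competes for the same ligands and restrains the T cell, and ICOS is a relative of CD28 with a ligand of its own. CD2 and CD48 hold cells together, while CD5 and CD6 belong to the scavenger receptor family with cysteine-rich domains and tune signalling by the antigen receptor. In the spleen these contacts take place mainly in the white pulp, where T and B cells lie next to dendritic cells.

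Signal was given as 1 intensity per probe set and array, in arbitrary units on a linear scale. The term bright is used for probe sets that exceeded the 60th percentile of array 1, at 346.32, and also that of array 2, at 342.22. As a measure of background, the highest of 15 probe sets for bacterial genes foreign to mouse gave 95 on array 1 and 76.2 on array 2. Brightness depends on the probe sequence as well as on the transcript, so the genes were not ranked against each other. Markers of the resident cells of the spleen were bright, with 9 of 10 measured T cell markers, 6 of 7 B cell markers and 7 of 7 markers of dendritic cells and macrophages. Over all 8251 genes of the array the bright share was 45.2%. Markers of the neighbouring pancreas were also bright in 6 of 8 cases, with a median signal of 6458 on array 1 and 6616 on array 2. Their part in the levels given here was not tested.

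Of the 9 measured genes 5 were bright, namely Cd86, Cd2, Cd48, Cd5 and Cd6, against 45.2% of all 8251 genes, where a gene was read from its brightest probe set. Counted over probe sets, 5 of 12 were bright, against 38.9% of the 10833 that named a single gene. Both shares lay near those of the whole array. The highest bacterial control was exceeded on both arrays by 8 of the 12, against 67.2% of single-gene probe sets, and by 6 of the 9 genes, against 73.9% of all genes. The other 4 were the probe sets of Ctla4 and Icos and both probe sets of Cd80. In bulk RNA, fewer cells of a type and less RNA per cell cannot be told apart.

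**Figure D1:**
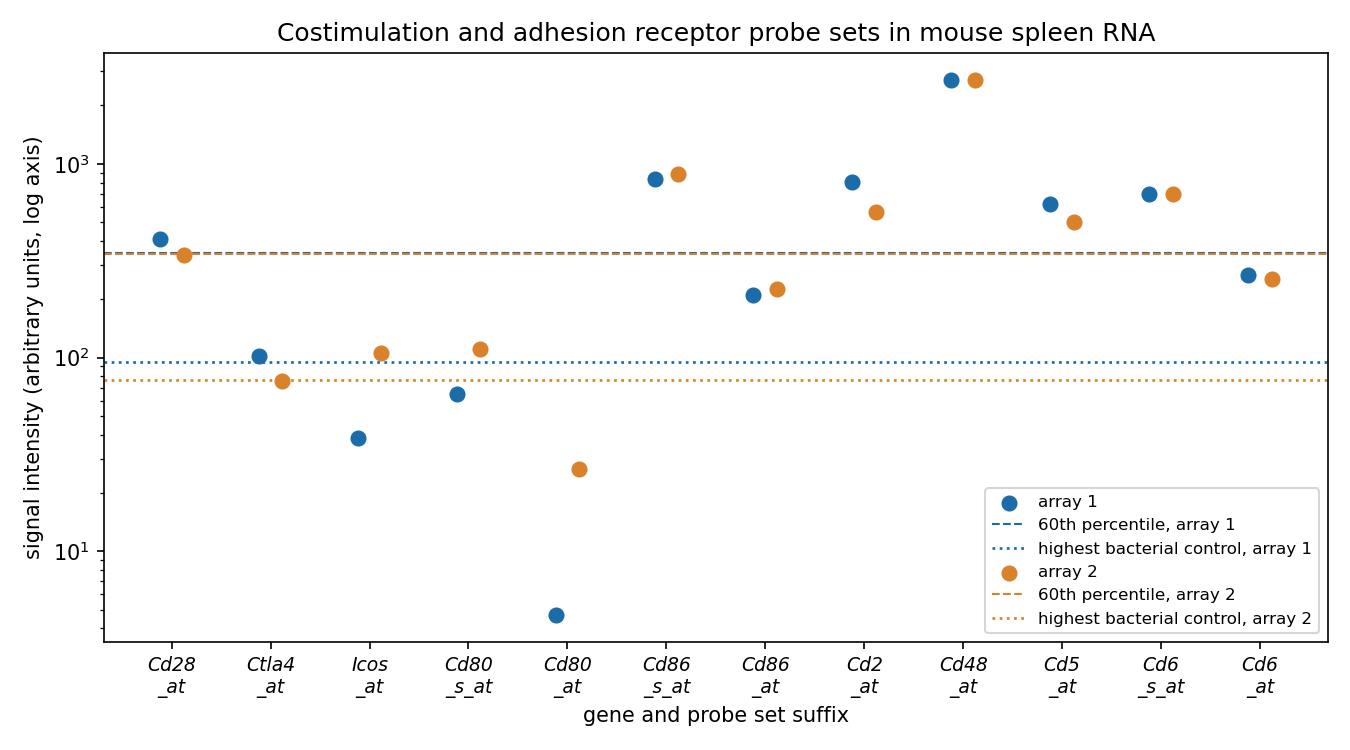
Signal intensity of each of the 12 probe sets on array 1 (blue) and array 2 (orange), on a log axis, with the gene and the probe set suffix below. Dashed lines mark the 60th percentile of each array and dotted lines the highest bacterial control. Cd48 stands far above the dashed lines on both arrays, and Ctla4, Icos and Cd80 lie close to or below the dotted lines.

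Among the receptors of the CD28 family, none was bright. Cd28, which delivers the costimulatory signal on T cells, gave 409.4 on array 1 and 337.3 on array 2, or 373 ± 51.0 (SD, n = 2 arrays here and below). It passed the cutoff on array 1 and missed it on array 2, and both values lay well above the bacterial controls. Ctla4, the inhibitory receptor induced on activated T cells and carried by regulatory T cells, gave 102.1 on array 1 and 75.5 on array 2, with a mean of 88.8 ± 18.8. Its signal exceeded the highest bacterial control on array 1 and lay just under it on array 2, so the arrays do not settle whether the transcript was detected. Icos, which helps T cells that support antibody responses, gave 38.4 on array 1 and 105.5 on array 2, with a mean of 71.95 ± 47.4. It was within the range of the controls on array 1 and above it on array 2. With low values floored at 41.8 the log2 difference of Icos, array 1 minus array 2, was -1.34. Its array 1 value lay under that floor, so -1.34 is no measured fold. With no floor the difference was -1.46, and with 16 added to each intensity in place of the floor it was -1.16. The array 1 value was below the highest control, so the size of the difference remains uncertain. With the floor Icos was counted as more than 2-fold apart, 1 of the 12 probe sets, against 4.96% of single-gene probe sets. With no floor the plain probe set of Cd80 was added, against 13.4%.

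The ligands of CD28 and CTLA4 on antigen-presenting cells gave unlike signals. Cd86, which resting dendritic cells carry and B cells raise on activation, was read by a pair of probe sets. The one with the suffix _s_at gave 838.1 on array 1 and 885.1 on array 2 (862 ± 33.2), and was bright. The plain probe set gave 209.1 on array 1 and 225.1 on array 2 (217 ± 11.3), above the controls but not bright. The suffix _s_at marks probes shared by several transcripts or related sequences. The probe sets of Cd86 thus stood apart 4.01-fold on array 1 and 3.93-fold on array 2, far more than either differed between the arrays. Cd80, which appears mainly on activated presenting cells, gave 65.2 on array 1 and 110.2 on array 2 with its _s_at probe set (87.7 ± 31.8). Its plain probe set gave 4.7 on array 1 and 26.6 on array 2, below the highest control on both, and both values lay under the floor. The signal of Cd80 passed the highest control only on array 2 and only with the _s_at probe set.

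The adhesion pair gave signals above the cutoff. Cd2, found on T cells and natural killer cells and in the mouse also on B cells, gave 808 on array 1 and 561.9 on array 2 (685 ± 174). Of the 5 bright genes among the 10, Cd2 had the arrays furthest apart, with a log2 difference of 0.52, array 1 minus array 2. To gauge the spread, all probe sets that are not controls were ordered by mean signal and divided into 4 equally large signal groups. Those in the brightest of these, which holds Cd2, had a pooled SD of 0.142 on the log2 scale, and 2.06% of them were at least as far apart. Cd48 encodes the ligand of CD2 in the mouse and of the natural killer receptor CD244. The protein is anchored in the membrane by a lipid and is carried by most leukocytes. The probe set of Cd48 gave 2706.7 on array 1 and 2713.2 on array 2 (2710 ± 4.60). Its signal lay at the 95.6th percentile of both arrays, with a log2 difference of -0.0051.

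The scavenger-type receptors were bright as well. Cd5, an inhibitory co-receptor on T cells and on the B-1 subset of B cells, gave 618.3 on array 1 and 503.3 on array 2 (561 ± 81.3). The log2 difference of 0.30 lay within the spread of probe sets in the same signal group, the next lower one, whose pooled SD was 0.234 and of which 29.4% were at least as far apart. Cd6, a relative of Cd5 on T cells that binds the adhesion molecule ALCAM, was read by a pair of probe sets. The one with the suffix _s_at gave 700.8 on array 1 and 698.3 on array 2 (699.55 ± 1.77). The plain one gave 266.4 on array 1 and 253.4 on array 2 (259.9 ± 9.19) and was not bright. Both probe sets of Cd6 repeated closely, yet they stood apart 2.63-fold on array 1 and 2.76-fold on array 2. The bright call of Cd6, like that of Cd86, therefore rests on the _s_at probe set, and 3 genes, Cd2, Cd48 and Cd5, were bright when only plain probe sets were read.

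Several of these genes are neighbours in the genome. In the gene order of RefSeq, Ctla4 lies between Cd28 and Icos with 0 other protein-coding genes among them, and 0 lie between Cd5 and Cd6. Cd48 and Slamf1 are separated by 1 gene counted in RefSeq as protein-coding, Tma7-ps, and Cd80 and Cd86 by 24. None of the neighbours Cd28, Ctla4 and Icos was bright, and both Cd5 and Cd6 were, Cd6 by its _s_at probe set alone. Of Cd80 and Cd86, only Cd86 was bright, also by its _s_at probe set alone. Whether neighbours share a level was not tested.

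Promoter sequences of RefSeq (GRCm38.p6) were at hand for 5 of the 10 genes. The 250 bases before the start are shown for the 4 of them that were measured, a bright pair and a pair near the level of the controls, read 5′ to 3′ on the strand of the gene. The windows are chr1:171681742-171681991 (plus strand) for Cd48, chr19:10738975-10739224 (minus strand) for Cd5, chr1:60908775-60909024 (plus strand) for Ctla4 and chr16:38458683-38458932 (plus strand) for Cd80. Capitals mark matches to 3 short motifs searched on both strands, which do not overlap here: GGAAGT, a core of ETS factors, TGTGGT, a core of RUNX factors, and TATAAA.
Cd48: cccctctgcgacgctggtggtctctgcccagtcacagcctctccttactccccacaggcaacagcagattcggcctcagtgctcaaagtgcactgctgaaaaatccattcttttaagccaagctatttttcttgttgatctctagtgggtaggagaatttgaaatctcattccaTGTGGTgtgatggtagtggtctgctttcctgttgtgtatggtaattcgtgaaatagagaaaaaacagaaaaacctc
Cd5: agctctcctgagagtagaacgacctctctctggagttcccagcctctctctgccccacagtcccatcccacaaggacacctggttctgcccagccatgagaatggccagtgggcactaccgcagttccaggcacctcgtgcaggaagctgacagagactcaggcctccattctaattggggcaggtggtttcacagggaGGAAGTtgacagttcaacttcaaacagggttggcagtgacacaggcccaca
Ctla4: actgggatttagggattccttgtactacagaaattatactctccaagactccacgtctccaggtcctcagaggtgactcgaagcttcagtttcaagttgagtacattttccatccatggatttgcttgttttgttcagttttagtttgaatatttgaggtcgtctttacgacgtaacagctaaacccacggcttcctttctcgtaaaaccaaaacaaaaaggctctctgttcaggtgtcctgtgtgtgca
Cd80: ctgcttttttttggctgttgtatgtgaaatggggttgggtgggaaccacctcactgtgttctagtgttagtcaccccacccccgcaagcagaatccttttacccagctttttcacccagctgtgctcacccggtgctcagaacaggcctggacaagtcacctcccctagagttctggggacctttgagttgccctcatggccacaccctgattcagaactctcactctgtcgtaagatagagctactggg
The window of Cd48 held TGTGGT from 76 to 71 bases before the start, and that of Cd5 held GGAAGT from 51 to 46 bases before it. The windows of Ctla4 and Cd80 held none of the 3. The motifs were chosen after these sequences were seen, so this split between the pairs is no evidence of a difference. Among all 32851 windows in the table, 19.7% held GGAAGT, 14.0% held TGTGGT and 12.4% held TATAAA. For the 6576 genes of the array with a window, GGAAGT was found for 28.7% of bright genes against 23.6% of the rest, and TGTGGT for 13.7% against 13.5%. TATAAA was found for 8.37% of bright genes against 13.2% of the rest. These shares are descriptions across genes, which are not independent, and a match is not a site.

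With low values floored, the spread between arrays over the 12 probe sets was near that of the array as a whole. The pooled SD of the log2 signals was 0.354, against 0.317 for all probe sets that are not controls. The largest difference behind it, -1.34 for Icos, rests on a floored array 1 value, and was -1.46 with no floor. With no floor the pooled SD over the 12 was 0.633, and no value over all probe sets is given for that setting. For the 5 bright probe sets the pooled SD was 0.191, against 0.152 for all 4708 bright ones. The largest difference behind the 0.191 was 0.52, for Cd2. Those of the others were 0.30 for Cd5, -0.080 for Cd86, -0.0051 for Cd48 and 0.0035 for Cd6. Of the 12, 6 gave higher intensities on array 1 and 6 on array 2. The probe sets of Ctla4 and Icos, the _s_at probe set of Cd80 and the plain one of Cd86 lay in the signal group just below that of Cd5. There the pooled SD of all probe sets was 0.522 and 17.6% differed by more than 2-fold. Against that spread the log2 differences of 0.43 for Ctla4 and -0.76 for Cd80 were common, with 46.5% and 24.8% of the signal group at least as far apart. For Icos the figure was 9.18%. Each of these 3 differences sets a value above the highest control on 1 array against a value at or below it on the other.

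**Figure D2:**
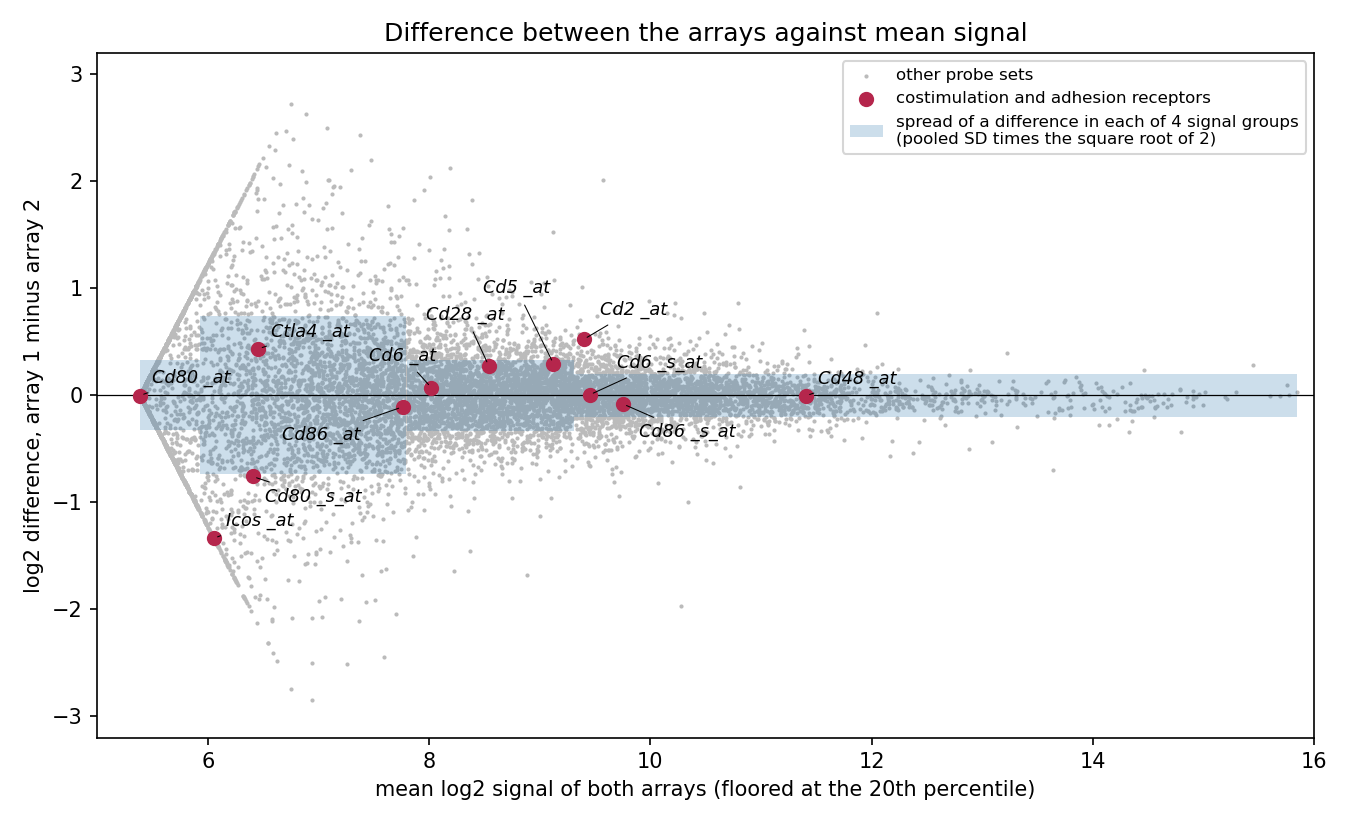
Log2 difference, array 1 minus array 2, against mean log2 signal for all probe sets that are not controls (grey) and the 12 described here (red, named). Blue bands show the spread of a difference in each of the 4 signal groups, the pooled SD times the square root of 2, and straight edges at the left come from the floor at 41.8. Cd2, at 0.52, lies outside the band of its signal group, and so do Icos, at -1.34, and the _s_at probe set of Cd80, at -0.76. The plain probe set of Cd80 is at the floor on both arrays.

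Other genes of the same pathways were read from 4 lists, to be set beside the 45.2% of all genes that were bright. Of the other immunoglobulin-type receptors 8 of 23 were measured, and 2 of these were bright: Ly9, a relative of Slamf1 that binds itself on neighbouring cells, at 665.1 on array 1 and 543.7 on array 2, and Cd7, at 824.7 and 928. The remaining 6 were Pdcd1, Lag3, Cd96, Cd160, Crtam and Pecam1. Pdcd1, which encodes the inhibitory receptor PD-1 of activated T cells, gave 88 on array 1 and 69 on array 2, below the highest control on both, as Ctla4 was on array 2. The list's median was 180 on array 1 and 302 on array 2, against 318.5 and 312.9 over all genes. With 8 values the median can move with a single gene, and Pecam1 gave 76.3 on array 1 and 285 on array 2.

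Among other ligands and their partners, 5 of 12 measured genes were bright, namely Cd72, Nectin2, Cd40, Lgals9 and Cd47, against 45.2% of all genes. Cd72, a lectin receptor of B cells, gave 2306.8 on array 1 and 2330.4 on array 2. Alcam, the ligand of CD6, gave 121.8 on array 1 and 135.4 on array 2, above the controls but not bright, as was the plain probe set of Cd6. Cd40lg, which activated T cells use to stimulate B cells, gave 21 on array 1 and 17.7 on array 2, within the range of the controls. On the list of other scavenger-type genes 3 of 5 measured were bright: Cd5l, Lgals3bp and Dmbt1. Whether their products are surface receptors was not examined. Msr1, at 67 on array 1 and 114.8 on array 2, and Marco, at 317.7 and 379, were not bright.

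Intracellular partners of the receptors were bright in 14 of 20 cases, against 45.2% of all genes. They included the kinase Fyn, at 952.8 on array 1 and 887.1 on array 2, the phosphatase Ptpn6, which acts below inhibitory receptors, at 2285.2 and 2345.2, and Pik3cd, a lipid kinase subunit of leukocytes, at 1477 and 1462.3. Pstpip1, which binds the tail of CD2, gave 716.6 on array 1 and 668.6 on array 2. Sh2d1a, the adaptor SAP that couples receptors of the Slamf1 family to Fyn, gave 21.2 on array 1 and 72.7 on array 2, below the highest control on both. Cd2bp2 and Cd2ap, named for their binding to CD2, were not bright, and neither were Sh2d1b1, Grap2 and a further phosphatase, Ptpn11. Grap2 and Ptpn11 lay below the highest control on both arrays, Ptpn11 at 11.2 on array 1 and 19.2 on array 2.

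The cell types that carry the receptors were read from their markers. The T cell genes Cd3e, Cd4 and Cd8a gave 1155.4, 1011.2 and 536.7 on array 1 and 1224, 966.6 and 567.6 on array 2, all bright. Cd247, a further T cell marker, gave 242.5 on array 1 and 215.6 on array 2 and was not bright. In the same RNA Cd28 passed the cutoff on 1 array only. Of the presenting cells, the B cell gene Cd79a gave 10333.1 on array 1 and 10870.5 on array 2. The B cell marker Cr2 gave 192 on array 1 and 210.7 on array 2 and was not bright. The dendritic cell gene Itgax gave 838.6 on array 1 and 871.1 on array 2, and the macrophage gene Csf1r gave 3521.4 and 3641.3. Of the 4 measured natural killer markers 2 were bright, Klrd1 at 390 on array 1 and 358.5 on array 2 and Gzma at 440.1 and 473.8. The others, Ncr1 and Prf1, were not bright and lay above the highest control on both arrays. How much each cell type contributed to the signal of Cd2, Cd48 or Cd86 was not tested, since the RNA was from whole tissue.

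**Figure D3:**
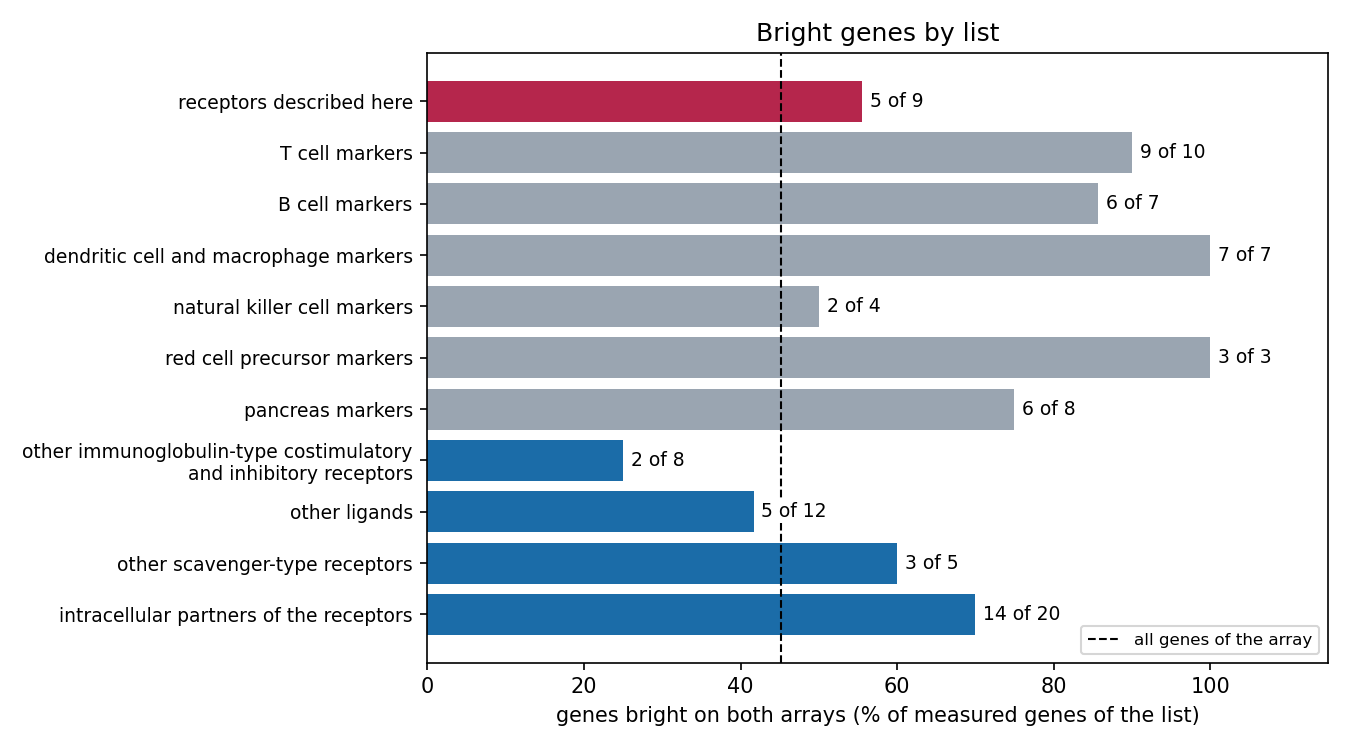
Share of measured genes that were bright on both arrays, in percent, for the costimulation and adhesion receptors (red), cell type markers (grey) and other genes of the same pathways (blue). Labels give bright genes of measured genes, and the dashed line marks the share over all genes, 45.2%. The receptors, 5 of 9, lie near that line, and the T cell markers, 9 of 10, lie to the right of it.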

How the data were processed

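Spleen RNA was read on 2 arrays of 12488 probe sets, 66 of them controls, which were left out. The deposited values are intensities on a linear scale, made by the authors with software not given in the sources used here. Their mean without the lowest and highest 2% of probe sets came to 500.265 for array 1 and 500.278 for array 2, which shows that both had been scaled to a common target. Detection calls were not used. Precision is limited by having 2 arrays.

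Genes were named from the platform's annotation, with 10833 single-gene probe sets, 396 that name several genes and 1193 that name none; all 12 described here matched RefSeq by gene identifier. A gene was read from the single-gene probe set whose mean log2 signal was highest. For log2 differences, intensities were floored at the 20th percentile of their array, and differences were centred on the median of bright probe sets. The pooled SD is the root of the mean squared difference divided by 2, and its computation was tested on simulated data. All 10 genes were to be named, as were their direct partners and markers of carrier cells; other genes of the lists were named after their values were seen. The genes and lists were chosen with earlier results of these data known, and motifs after the sequences were seen. Alternatives changed the brightness cutoff, floor, pseudocount, normalization, centring, suffixed probe sets and arrays used. Python 3.11.15, numpy 2.4.6, pandas 2.3.3 and matplotlib 3.10.9 were used.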

Additional observations from a re-analysis of the deposited data

How the results depend on the processing

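The number of bright genes depended on the cutoff and on suffixed probe sets. At a 75th percentile cutoff, 3 of 9 genes were bright (Cd86, Cd48 and Cd6), against 28.5% of all genes, and 3 of 12 probe sets, against 23.7%. Without suffixed probe sets 3 of 9 genes and 3 of 9 probe sets were bright (Cd2, Cd48 and Cd5), against 43.4% of all genes and 40.9% of probe sets. At the 50th, 6 genes and 7 probe sets were bright, against 55.7% of all genes and 48.7% of probe sets. On 1 array alone 5 to 6 genes and 5 to 6 probe sets were bright, Cd28 being added on array 1, against 47.6% of all genes and 41.1% to 41.2% of probe sets. Above the controls lay 9 to 10 probe sets, against 69.4% to 72.9%. The pooled SD of 0.354 became 0.633 with no floor and 0.191 over bright probe sets alone. Probe sets over 2-fold apart numbered 1, which became 2 with no floor (against 13.4% of probe sets) and 2 with a pseudocount of 16 (against 7.46%). The added one was the plain probe set of Cd80, whose log2 difference became -2.50 and -1.04; both its intensities lie under the floor. Quantile normalization left every count as it was. Of 48 differences of single probe sets under alternatives, 2 moved by more than the pooled SD of their signal group, both of this probe set, and 0 changed direction past 2-fold. No paired analysis was possible because the arrays form 1 group. Low signal limits what can be said of Ctla4, Icos and Cd80, and no group was large enough to look for arrays that stand apart.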

Other observations

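In each of the 3 genes with a pair of probe sets, Cd80, Cd86 and Cd6, the _s_at probe set gave the higher signal on both arrays. Over the whole array, 121 genes had 1 plain and 1 _s_at probe set that named them alone. The _s_at probe set had the higher mean log2 signal in 71 of these, or 58.7%. In 36 of the 121 one probe set of the gene was bright and the other was not, in 26 of them the _s_at one. The median size of the gap was 1.02 on the log2 scale, and in 34 genes it exceeded 4-fold. The gaps of Cd86 and Cd6 repeated on both arrays. That of Cd80 was 13.9-fold on array 1 and 4.14-fold on array 2. Its plain probe set was below the highest control on both arrays and its _s_at one on array 1, so its gap compares values near background. The genes Cd80, Cd86 and Cd6 are included among the 121. No test was made, and which probe set follows the level of the transcript was not tested.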
